A study of Mus musculus with 6 samples.

Results

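Monocyte-committed progenitors of mouse bone marrow were taken as cell barcodes with at least 2 UMIs of Irf8 and at least 2 of Ly86, in which Elane, Prtn3 and Mpo together made up at least 0.2% of UMIs, Ngp and Camp made up under 0.2%, and Siglech was at 0. A UMI (unique molecular identifier) stands for 1 captured transcript. These members numbered 1236 of 11651 kept marrow barcodes, 714 of 5257 in the library labelled WT and 522 of 6394 in the library labelled KO. Kept barcodes had 300 or more genes and 500 or more UMIs, with no more than 10% of them mitochondrial. The members were chosen by their measured UMIs of 8 genes, so those genes are given as a description only, and the other genes of the same cells are described without a test. Neutrophil-side progenitors, 2382 and 2112 barcodes in the same order, met the same limit on Elane, Prtn3 and Mpo and had no Irf8 UMI. A smaller set below that limit, called monocyte-side here, had at least 2 UMIs each of Irf8, Ly86 and Ly6c2 (a surface protein gene of inflammatory monocytes), met the limits on Ngp, Camp and Siglech, lacked Cd79a and numbered 83 and 136.

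Each library pooled the marrow of 3 tumor-bearing mice, with tumors grown from EMT6, a mammary carcinoma line of the mouse. The group labelled WT was BALB/c, and the group labelled KO was deficient in Cysltr1, whose product binds cysteinyl leukotrienes, inflammatory lipids made by myeloid cells. The labels do not state how Cysltr1 was inactivated, nor the age or sex of the animals. Marrow was enriched magnetically for hematopoietic progenitors before single-cell capture, so shares of cells describe the enriched fraction and not whole marrow. With 1 library per genotype there was no replicate, no test was run, and the 95% intervals given, exact Poisson on UMIs and Clopper-Pearson on cell shares, cover counting error only.

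Granulocyte-monocyte progenitors give rise to neutrophils and monocytes. In mice the transcription factor Irf8 is needed for the monocyte and dendritic branches and restrains the neutrophil branch, for which Cebpe and Gfi1 are central. Elane, Prtn3 and Mpo encode enzymes of azurophil granules, which form first in this lineage and are switched off as cells mature, so cells that hold them together with Irf8 and Ly86 stand early on the monocyte path. Ly86 encodes MD-1, the partner of the Toll-like receptor homolog RP105.

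The 2 marrow matrices held 75873784 (WT) and 47481894 (KO) UMIs. Kept barcodes had a median of 13071 and 6521 UMIs, members of 22327 and 12210.5, and neutrophil-side progenitors of 13434.5 and 8519. The targeted gene went against its label: Cysltr1 was counted in members of both libraries, at 10.2 CPM under the WT label (interval 8.71 to 11.9) and 20.1 CPM under the KO label (16.9 to 23.8), where CPM is a gene's UMIs scaled to all UMIs of the summed cells. Reads outside a deleted part would not test the label, and the deleted part was not known here. Of the kept barcode sequences, 53 occurred in both libraries, and 1 was a member in both. A doublet score against simulated pairs placed 46 WT and 43 KO members (6.44% and 8.24%) among the highest-scored barcodes, against 4.21% and 5.12% of all kept barcodes. Members were kept whole in the values below, and results that changed without those cells are given with both values.

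The 4 given markers that the rule did not use were all far above the neutrophil side. The 2 groups were cut on Irf8, so genes that accompany it differ by construction, and this is no test of the label. All 4 were also high in monocyte-side cells, with Ms4a6c at 1347 and 1525 CPM and Pld4 at 352 and 412. They therefore do not set members apart from those cells. F13a1 (factor XIII A chain, chromosome 13, 36867178 to 37050244, mm10) was at 955 CPM in WT members and 897 in KO members, against 67.2 and 67.2 in neutrophil-side progenitors. Ms4a6c, a four-span membrane protein gene (chromosome 19, 11469366 to 11482192), was at 748 and 839 CPM against 33.7 and 57.5. Pld4, an endolysosomal nuclease gene (chromosome 12, 112760655 to 112768990), was at 173 and 210 CPM against 3.32 and 9.80. Tifab, a regulator of TRAF6 signalling (chromosome 13, 56173704 to 56178885), was at 171 and 198 CPM against 34.0 and 32.8. Every member level lay above every neutrophil-side level for these genes. Of the genes of the rule, Irf8 was at 412 and 489 CPM, Ly86 at 243 and 325, Elane at 3965 and 4426, Prtn3 at 8125 and 8026, and Mpo at 4378 and 4947 in members.

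**Figure D1:**
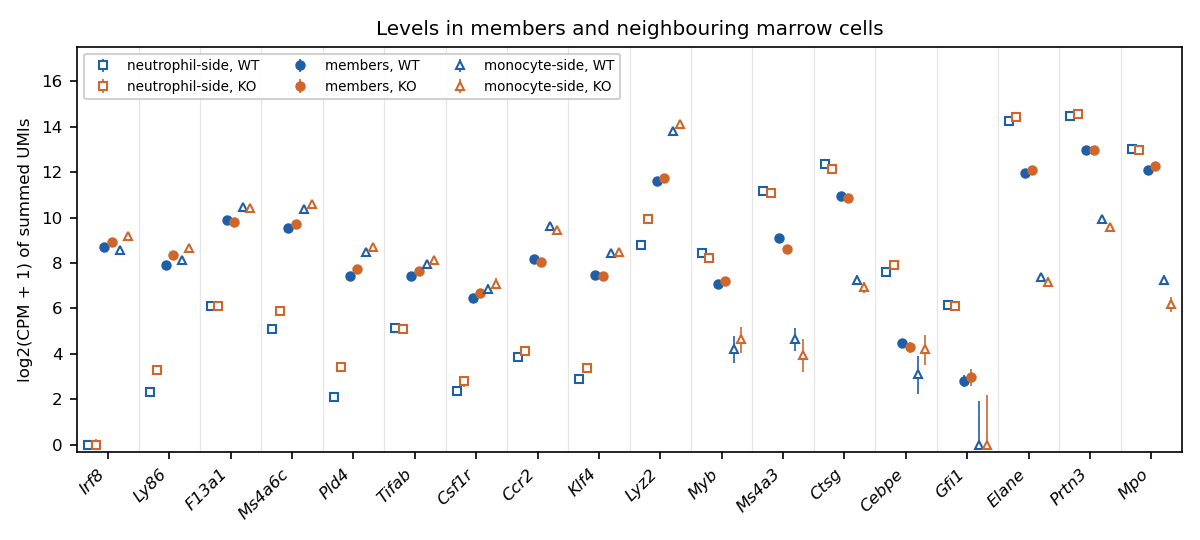
Levels of 18 genes on a log2(CPM + 1) scale in neutrophil-side progenitors (squares), members (filled circles) and monocyte-side cells (triangles), in the library labelled WT (blue) and the library labelled KO (orange), with 95% Poisson intervals. Irf8, Ly86, Elane, Prtn3 and Mpo belong to the rule. F13a1, Ms4a6c, Pld4 and Tifab are high in members and monocyte-side cells, and Ms4a3, Ctsg and Myb lie between the other two groups in members.

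Cells just inside and just outside the limits showed how sharply the rule divides. Members with exactly 2 Irf8 UMIs (44 WT, 63 KO) had F13a1 at 705 and 791 CPM, and barcodes with 1 Irf8 UMI that met all other limits (38 and 69) had it at 773 and 863 CPM. Members with exactly 2 Ly86 UMIs (123 and 112) had F13a1 at 920 and 793 CPM, and barcodes with 1 Ly86 UMI (96 and 119) at 786 and 839. The limits on Irf8 and Ly86 therefore cut through cells with similar F13a1 levels. Barcodes with no Ly86 UMI (152 and 105) differed more: F13a1 was at 340 and 474 CPM, and Cd34, a surface marker of early progenitors, at 197 and 172 CPM against 77.1 and 85.4 in members with 2 Ly86 UMIs. At the azurophil limit, members with a share of 0.2 to under 0.3% (47 and 41) had Ms4a3 at 62.1 and 22.95 CPM, and cells with 0.1 to under 0.2% (59 and 68) at 30.2 and 23.3.

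The Elane, Prtn3 and Mpo share of members ran from 0.206% to 6.37% of a cell's UMIs in WT, with a median of 1.32%, and from the limit to 7.92% in KO, with a median of 1.23%. Neutrophil-side progenitors had medians of 4.91% and 5.94%. In erythroid-side barcodes, taken as those with at least 2 UMIs of the erythroid factor Klf1 (167 and 262), the median share was 0.0221% and 0.0118% at median depths of 22777 and 15910 UMIs. These cells should lack granule enzymes, yet 3 and 6 of them met the rule for members. Whether free RNA or doublets gave their granule transcripts was not tested. Of the erythroid-side barcodes, 6.59% and 6.11% reached the limit of 0.2%. In a smaller set of B lineage barcodes with at least 2 UMIs of Cd79a, 9 of 45 and 19 of 69 reached it, with median shares of 0.0262% and 0.0628% at median depths of 16965 and 1660 UMIs.

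The comparison with neutrophil-side progenitors asked what distinguishes Irf8 progenitors from those without it above a common limit of granule transcript. The groups shared only that limit: the neutrophil side had the higher granule share given above and was not held to the limit on Ngp and Camp, with Ngp at 3525 and 5999 CPM against 12.7 and 16.6 in members. Of 3111 genes with at least 100 UMIs and a mean of at least 50 CPM, 218 (7.01%) were higher in members, at least 2-fold in both libraries with intervals apart, and 110 (3.54%) were lower. The median log2 ratio over all 3111 was 0.19 in WT and 0.23 in KO. When the groups were scaled to a median ratio of 0, 160 genes were higher and 144 lower.

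The genes that stood highest in members were those of monocytes. Ifi30 (GILT, a lysosomal reductase used in antigen processing) was at 631 and 628 CPM in members and at 17.7 and 35.9 in neutrophil-side cells, a log2 difference of 5.08 and 4.09. Klf4, a transcription factor needed for inflammatory monocytes, was at 176 and 172 CPM against 6.39 and 9.58. The chemokine receptor gene Ccr2, through which monocytes leave the marrow, was at 286 and 263 CPM against 13.5 and 16.4. Csf1r, the receptor for macrophage colony-stimulating factor, was at 86.0 and 101.1 CPM against 4.17 and 5.91. The other genes among the 12 highest were Pld4 and Ms4a6c, with log2 differences of 5.33 and 4.29 and of 4.43 and 3.84, and Ahnak, Prdx4, Ms4a4c, Olfm1, Tmem109 and Ifi202b, with log2 differences of 3.80 to 4.86. Prdx4, an endoplasmic reticulum peroxiredoxin, stood at 163 and 196 CPM against 8.42 and 11.7, and unlike the others it was at a similar level in monocyte-side cells (154 and 198 CPM).

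**Figure D2:**
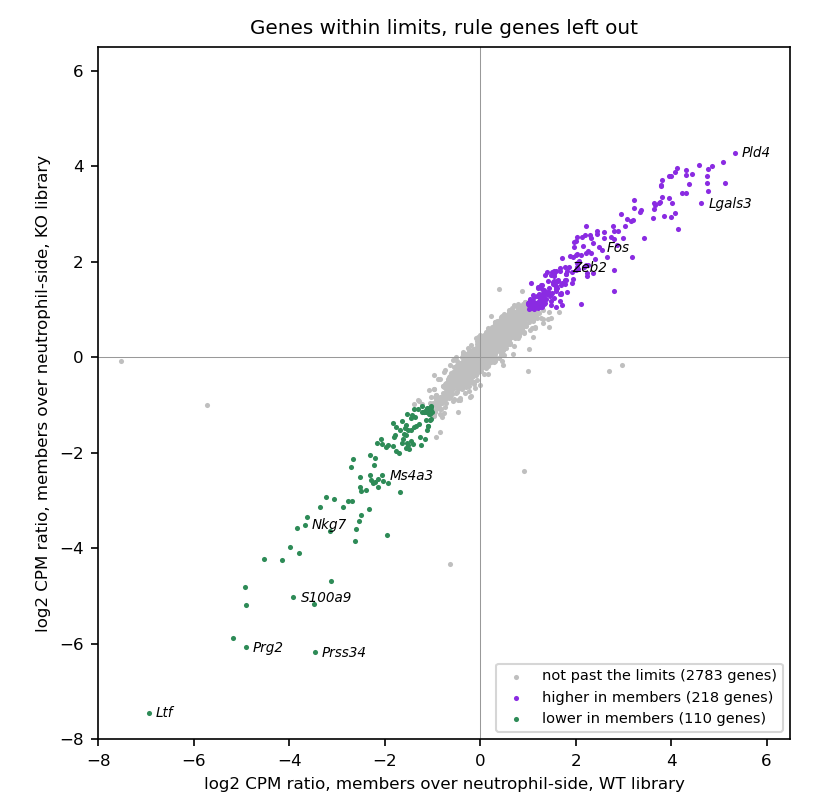
Log2 ratio of CPM in members over neutrophil-side progenitors in the library labelled WT (horizontal) and the library labelled KO (vertical), 1 point per gene within limits, with the genes of the rule left out. The 218 genes higher in members (purple) and the 110 lower (green) lie along the diagonal, from Pld4 at the top right to Ltf at the bottom left.

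By role, the list of monocyte differentiation genes had 22 of 26 within limits higher in members and 0 lower, beside 7.01% and 3.54% over all genes. The median log2 of the list was 3.36 and 2.92, beside 0.19 and 0.23 over all genes. Among them, Psap (prosaposin, precursor of lysosomal sphingolipid activators) was at 1795 and 1820 CPM against 143 and 193. Lyz2 (lysozyme M) was at 3116 and 3413 CPM against 444 and 966. Gpx1 and Ly6e, which are expressed widely, differed by 0.46 or less on the log2 scale. The list was chosen with earlier results of these data known, so its direction is not independent evidence.

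Of 19 myeloid transcription factors within limits, 5 were higher in members (Irf5, Klf2, Klf4, Zeb2 and Fos) and 2 were lower (Cebpe and Gfi1). Over all genes the shares were 7.01% and 3.54%. Irf5, an interferon regulatory factor of macrophages, was at 71.3 and 70.6 CPM against 2.47 and 4.79. Zeb2, needed for monocyte and dendritic fates, was at 251 and 274 CPM against 72.3 and 73.7. Cebpe, which drives the formation of secondary granules, was at 21.2 and 18.6 CPM against 196 and 242. Gfi1, a repressor that favours the neutrophil fate, was at 6.01 and 6.95 CPM against 70.3 and 69.0. Factors common to both branches differed less: Spi1 (PU.1) was at 301 and 332 CPM against 230 and 267, and Cebpa at 45.5 and 42.6 against 50.5 and 34.1.

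Cells that held a transcript of the neutrophil factors were few among members. After each cell was thinned to 4000 UMIs, which left out 2 WT and 5 KO members, Gfi1 or Cebpe was detected in 9.13% of WT members (7.12 to 11.5) and 7.54% of KO members (5.42 to 10.2). The same was 57.7% and 65.8% of neutrophil-side cells. Thinning left out 463 WT and 351 KO cells of the neutrophil side, a larger part than of members. Unthinned, Cebpe alone was detected in 29.1% and 17.2% of members at their greater depth. Transcripts of the dendritic genes Cd209a, Zbtb46, Xcr1 or Clec9a were found in 0.421% and 0.967% of thinned members, 3 and 5 cells.

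Receptors followed the same division. Of 10 cytokine and chemokine receptors within limits, 5 were higher in members and 0 lower, beside 7.01% and 3.54% over all genes. The 5 were Csf1r, Il6ra, Ifnar2, Ccr2 and Cxcr4. Il6ra, the receptor chain for interleukin 6, was at 78.6 and 82.9 CPM against 9.27 and 9.52. Cxcr4, which holds progenitors in the marrow, was at 109 and 98.3 CPM against 33.6 and 26.2. Csf2ra, the receptor chain for GM-CSF, was at 179 and 190 CPM against 117 and 142, and Csf3r, the receptor for G-CSF, at 24.8 and 26.5 against 48.0 and 50.1, neither past the limits.

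Lysosomal genes formed a further group: 13 of 18 within limits were higher and 0 lower, beside 7.01% and 3.54% over all genes. Among them, Ctss was at 157 and 159 CPM against 4.76 and 13.2, and Lamp1 at 597 and 619 against 199 and 221. Cathepsin S (Ctss) cuts the invariant chain of class II antigen presentation. H2-DMa, which loads peptides onto class II molecules, was also higher, at 216 and 279 CPM against 48.5 and 47.5, whereas Ciita, the master regulator of class II genes, had no UMI in members. Cd74, the invariant chain itself, was at 13.4 and 13.9 CPM, and 91.0% and 91.5% of its UMIs came from 5 cells in each library.

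Granule genes outside the rule were lower in members. Of 17 azurophil and early granule genes, 11 were lower and 1 was higher, with a median log2 of -2.05 and -2.25. Over all genes 3.54% were lower and 7.01% higher. Ctsg (cathepsin G) was at 1950 and 1842 CPM against 5314 and 4468, and Ms4a3, a marker gene of granulocyte-monocyte progenitors, at 553 and 394 against 2299 and 2187. Srgn, the proteoglycan core on which granule proteins are packed, was at 1390 and 1275 CPM against 6468 and 6075. The exception was Ctsc, the peptidase that activates the granule serine proteases, at 509 and 425 CPM against 32.0 and 41.1.

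The 12 lowest genes in members were Ltf, Vcam1, Prg2, Pglyrp1, Cd63, Slc40a1, Ugt8a, Cpa3, S100a9, Syne1, Mcpt8 and Nkg7. Several of them mark other cells that the neutrophil-side rule lets in. Ltf (lactoferrin, a secondary granule protein) was at 0.364 and 0.296 CPM in members against 168 and 225. Its log2 difference of -6.95 and -7.45 became 0.12 or less when the neutrophil side was also held under 0.2% of Ngp and Camp, the limit that members met. Cpa3 and Mcpt8, proteases of mast cells and basophils, had log2 differences of -3.98 in both libraries and of -3.84 and -3.59. These turned to 1.82 and 1.88 and to 1.38 and 2.02 when neutrophil-side cells with 3 or more UMIs of Mcpt8, Prss34 and Cpa3 were left out. Prg2, the major basic protein of eosinophils, was at 5.52 and 2.22 CPM against 196 and 216. Cd63, a granule membrane tetraspanin gene, was at 30.5 and 38.8 CPM against 960 and 1124. Nkg7, a granule membrane protein gene, was at 84.5 and 103 CPM against 1089 and 1186. Which neutrophil-side cells held these 2 transcripts was not tested.

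Markers of other cells were followed for the whole lists. Summed over 8 basophil and mast cell genes, members held 188 and 104 CPM and neutrophil-side cells 2230 and 2745. The 10 tissue macrophage genes summed to 29.98 and 26.6 CPM in members, with C1qa, C1qb, C1qc and Cd5l at 0, against 163 and 219 in neutrophil-side cells. Vcam1 (99.4 and 137 CPM) and Slc40a1 (58.5 and 73.6) made up most of the neutrophil-side sum. Of 6 genes of that list with at least 30 UMIs, 4 had a log2 ratio above 0 in each library. The median log2 was 0.66 and 0.74, beside 0.13 and 0.23 over 12485 genes with as many UMIs. By the limits, 0 passed as higher in members and 2 as lower (Vcam1 and Slc40a1). In members, 10 B lineage genes summed to 195 and 165 CPM, with Ms4a1 and Pax5 at 0, against 162 and 86.5 in neutrophil-side cells. The 10 erythroid genes summed to 40.1 and 99.1 CPM against 44.8 and 55.5. The T and NK cell, megakaryocyte, eosinophil and stem cell lists summed lower in members in both libraries. Nkg7 made up most of the T and NK cell sum. Of Car1, an erythroid carbonic anhydrase gene in that list, 98.3% and 94.2% of the UMIs came from 5 members.

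The following stretches of promoter are shown because they hold the matches found among the genes that set members apart. The RefSeq table of promoters (GRCm38.p6, 250 bases before to 50 after each start) held 11 of the 12 highest and 9 of the 12 lowest genes, besides the markers. It was searched on both strands for an ETS-IRF composite site (GGAA and GAAA with any 2 bases between), a PU.1 site (GAGGAAGT) and a C/EBP site (TTGCNNAA), with the match in capitals and each written on the gene's strand.
Pld4: agaacaaaGAGGAAGTgaatggaa
F13a1: gtccttttGAGGAAGTacccagag
Ifi30: gcctccacTTGCTTAAagtctccc
Ltf: caggcctaTTGGGCAAtagggtgg
S100a9: aggctgtcTTGCTTAAgatttggg

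The Pld4 stretch lies at chr12:112760656-112760679 on the plus strand, with the PU.1 letters starting 9 bases after the transcript start, and that of F13a1 at chr13:37049184-37049207 on the minus strand, 14 bases after one of its starts. The C/EBP letters start 33 bases before the start of Ifi30 (chr8:70766681-70766704, minus strand), 75 before that of Ltf (chr9:111019209-111019232, plus strand) and 236 before that of S100a9 (chr3:90695942-90695965, minus strand). Among the highest genes, 1 of 11 held the PU.1 letters and 1 of 11 the C/EBP letters, and among the lowest 0 of 9 and 2 of 9. Over all 27025 genes of the table the shares were 3.69% and 12.2%. The composite letters, found in 3.16% of all promoters, were in none of these 20 windows. A match is a description of the letters and not a bound site.

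Genes of dividing cells were detected more often in members than on the neutrophil side. In cells thinned to 4000 UMIs, Mki67 was detected in 65.9% of WT members (62.3 to 69.4) and 60.3% of KO members (56.0 to 64.6), against 34.2% and 37.9% of neutrophil-side cells. Top2a was detected in 64.5% and 58.4% against 41.0% and 42.5%, and Hist1h1b in 51.4% and 41.4% against 35.4% and 23.9%. Before thinning the Mki67 shares were 92.7% and 82.6% against 55.6% and 50.8%. Of 27 genes of the G2 and M phases within limits, 3 passed the limits as higher (Mki67, Ccna2 and Kif23) and 0 as lower, and the median log2 was 0.79 and 0.59. Of 22 S phase genes none passed, with medians of 0.39 and 0.47. Among genes with at least 30 UMIs, 27 of 28 G2 and M genes and 22 of 24 S phase genes lay above 0 in each library. Over all genes 7.01% passed as higher and the medians were 0.19 and 0.23, so most genes of both lists did not stand apart by the limits. The part of the later granulocyte cells on the neutrophil side in these differences was not tested. The trait was not particular to members. In thinned monocyte-side cells Mki67 was detected in 67.5% and 62.3%, Top2a in 62.7% and 61.5% and Hist1h1b in 47.0% and 41.8%. Their 28 G2 and M genes summed to 10291 and 9565 CPM, against 7605 and 6895 in members. Their 24 S phase genes summed to 2580 and 2597 CPM, against 3920.5 and 4017 in members.

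Set against monocyte-side cells, which lay below the azurophil limit, members showed the opposite profile. The groups were cut on Elane, Prtn3 and Mpo, so granule genes that accompany them differ by construction. Of 3430 genes within limits, 119 (3.47%) were higher in members and 246 (7.17%) were lower. Ms4a3 was at 553 and 394 CPM in members against 24.5 and 14.5 in monocyte-side cells, and Ctsg at 1950 and 1842 against 151 and 121. Myb, a transcription factor of immature progenitors, was at 133 and 149 CPM against 17.6 and 24.2. Phgdh, the entry enzyme of serine synthesis, was at 201 and 186 CPM against 24.5 and 27.1. Myc was higher as well, at 106 and 125 CPM against 26.8 and 30.04. Ribosome biogenesis had 9 of 16 genes within limits higher and 0 lower, with Npm1 (nucleophosmin) at 2387 and 2155 CPM against 933 and 1054.

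Genes of later monocytes were lower in members than in monocyte-side cells. Of 28 monocyte differentiation genes within limits, 16 were lower and 0 higher, beside 7.17% and 3.47% over all genes. Among them, Lyz2 was at 3116 and 3413 CPM against 14321 and 17801. The 6 lowest genes were Ms4a4a, Plbd1, Pla2g7, Ccl6, Clec4a1 and Ifi27l2a, with log2 differences of -2.88 to -3.65. Nr4a1, needed for patrolling monocytes, was at 20.6 and 12.6 CPM against 142 and 84.3. Irf8 and Ly86 themselves were at similar levels in the monocyte-side cells, 381 and 589 CPM and 279 and 400 CPM.

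Within the members, a minority of the other genes changed with the granule share. Members under 1% (281 WT and 220 KO cells), from 1% to under 3% (347 and 228) and at 3% and over (86 and 74) were summed separately. Median depth was 18877, 24135 and 24306.5 UMIs in these bins of the WT library and 10438.5, 13758 and 13955.5 in the KO library. Between the lowest and the highest bin, 233 of 3257 genes (7.15%) were at least 2-fold higher in the lowest bin in both libraries with intervals apart, and 61 (1.87%) were lower. The bins were cut on Elane, Prtn3 and Mpo, so granule genes that accompany them differ by construction, and these counts are a description.

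Lyz2 was at 6821, 1374 and 387 CPM from the lowest to the highest bin in WT and at 7283, 1569 and 368 in KO. Ccr2 was at 451, 223 and 103 CPM in WT and 427, 203 and 76.6 in KO. Fn1 (fibronectin), the gene with the largest difference, was at 487, 48.8 and 10.4 CPM in WT and 378, 38.0 and 4.62 in KO. S100a4 and Crip1, a calcium-binding and a LIM domain protein of motile cells, followed the same order, with 324, 70.8 and 12.2 CPM and 1451, 397 and 80.5 CPM in WT. Mki67 also followed it, at 516, 327 and 188 CPM in WT and 533, 334 and 192 in KO. The bin with the least granule transcript was thus the one with the most Mki67.

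Myb ran the other way, at 77.3, 148 and 220 CPM in WT and 95.1, 158 and 240 in KO. Kit, the stem cell factor receptor, was at 7.08, 17.9 and 31.1 CPM in WT and 11.6, 25.1 and 38.8 in KO. Nkg7 was at 15.0, 65.2 and 349 CPM in WT and 24.5, 64.0 and 398 in KO, and Alas1, the entry enzyme of heme synthesis, at 57.3, 149 and 421 and at 50.6, 177 and 437. Flt3, a receptor of dendritic and early progenitors, was highest in the bin with the lowest share, at 27.4, 12.8 and 2.83 CPM in WT and 31.5, 11.6 and 6.46 in KO. Cysltr1 had that order too, at 19.3, 6.32 and 1.88 CPM in WT and 36.5, 13.2 and 4.62 in KO, from 168 and 136 UMIs in all. In monocyte-side cells it was at 39.8 and 66.9 CPM, and in neutrophil-side cells at 1.32 and 6.87.

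**Figure D3:**
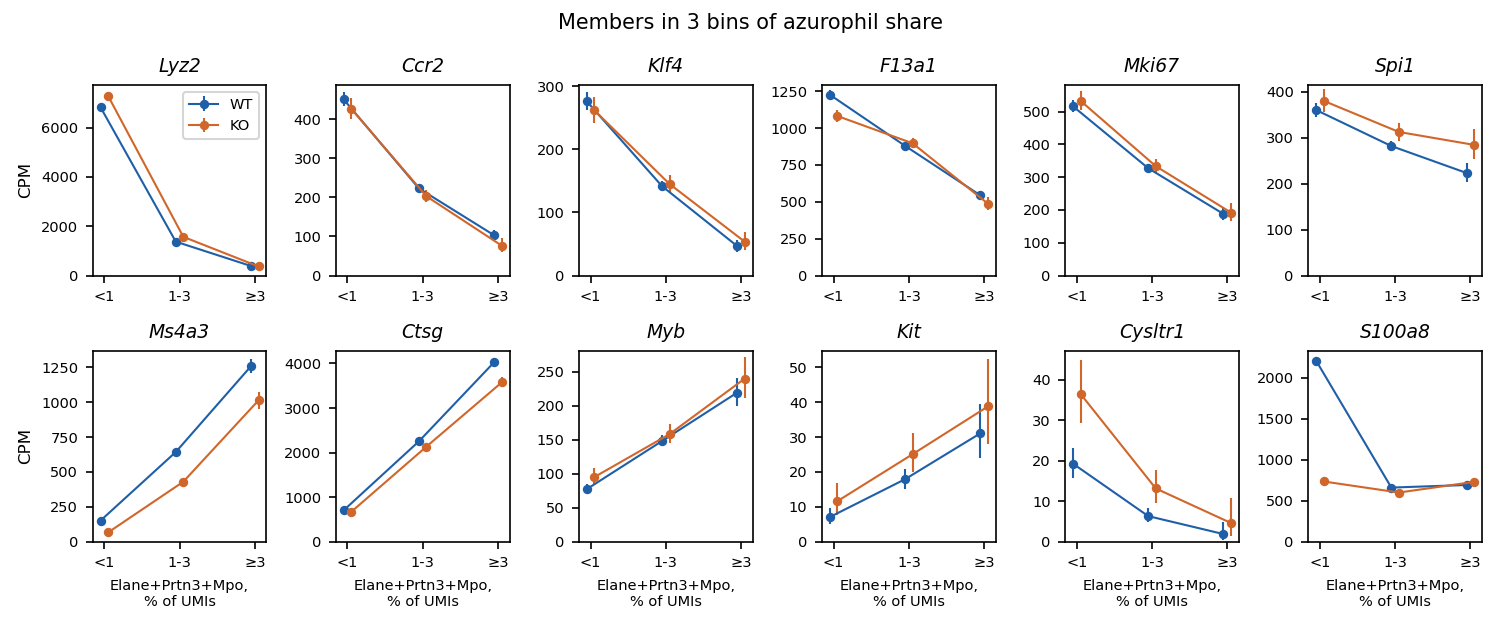
CPM of 12 genes in members split by the share of UMIs in Elane, Prtn3 and Mpo (under 1%, 1 to under 3%, 3% and over), in the library labelled WT (blue) and the library labelled KO (orange), with 95% Poisson intervals. Lyz2, Ccr2, Klf4, F13a1, Mki67 and Cysltr1 are highest in the lowest bin, Ms4a3, Ctsg, Myb and Kit in the highest bin, and S100a8 differs between libraries mainly in the lowest bin.

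Between the labelled genotypes, the first question was whether the share of members differed. Members made up 13.6% of kept barcodes in the library labelled WT (12.7 to 14.5) and 8.16% in the library labelled KO (7.50 to 8.86), a ratio of 0.601 (0.540 to 0.669). Both the cutoff in UMIs and the depth entered this ratio. When WT cells were drawn down to the median depth of the KO library, which kept a fraction of 0.499 of their UMIs, the shares were 8.86% (8.08 to 9.68) and 8.16%. Thinning to 4000 UMIs left out barcodes with fewer, so 4428 of 5257 WT and 4299 of 6394 KO barcodes remained. Among these the shares were 2.24% (1.82 to 2.72) and 3.42% (2.90 to 4.01), a ratio of 1.53 (1.19 to 1.97). With 1 UMI of Irf8 and of Ly86 required after that thinning, they were 9.39% (8.55 to 10.3) and 10.4% (9.46 to 11.3). At matched depth the intervals of the libraries overlapped under the first and the last of these settings. The order was turned in both thinned settings, with intervals apart only under the original cutoff. The barcodes left out by thinning were a larger part of the KO library, and their part in this turn was not tested.

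A measure that needs no cutoff on Irf8 or Ly86 was the summed level of the markers. Summed over all barcodes at or above the azurophil limit that met the limits on Ngp, Camp and Siglech (3200 WT and 2597 KO), Irf8 was at 160 CPM (156 to 163) and 182 CPM (177 to 188). Ly86 was at 85.9 and 111 CPM, Pld4 at 67.4 and 89.6, Csf1r at 35.5 and 44.0, F13a1 at 409 and 390 and Ccr2 at 124 and 118. Irf8, Ly86, Pld4 and Csf1r were thus higher per UMI in the library labelled KO and F13a1 and Ccr2 slightly lower, unlike the share of members at own depth. Genes of the neutrophil branch did not all fall in this pool. Cebpe was at 102 and 117 CPM and Fcnb, an early granule gene, at 49.2 and 82.5. Gfi1 was at 45.6 and 46.6 CPM and Ms4a3 at 1559 and 1481. The distribution of members over the bins of granule share was also similar, with 39.4%, 48.6% and 12.04% of WT members and 42.1%, 43.7% and 14.2% of KO members from lowest to highest.

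**Figure D4:**
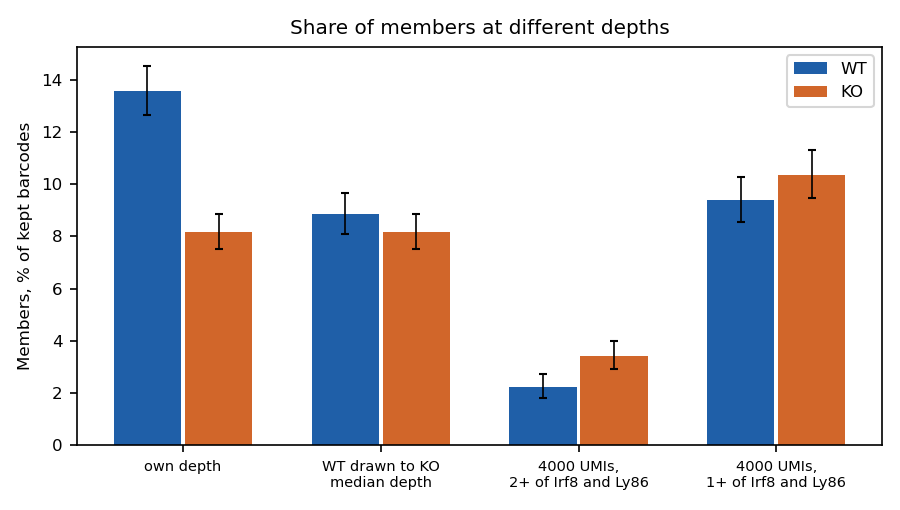
Members as a percentage of kept barcodes in the library labelled WT (blue) and the library labelled KO (orange), with 95% Clopper-Pearson intervals. The settings are own depth, WT cells drawn to the KO median depth, and cells thinned to 4000 UMIs under 2 cutoffs. In the thinned settings only barcodes with at least 4000 UMIs are counted. WT is higher at own depth (13.6% against 8.16%) and lower after thinning (2.24% against 3.42%).

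Within members, few genes differed between the libraries. Of 2925 genes within limits, 6 (0.205%) were at least 1.5-fold higher in the library labelled KO with intervals apart and 14 (0.479%) were lower. In neutrophil-side progenitors 19 of 2555 (0.744%) were higher and 12 (0.47%) lower. Of the genes that passed in members, 2 higher and 2 lower ones passed the same way in neutrophil-side cells. None of 26 monocyte differentiation genes within limits passed in either direction, and their median log2 was 0.02 beside -0.02 over all genes. Klf4, Ccr2, Csf1r, F13a1, Ms4a6c and Tifab differed by 0.23 or less on the log2 scale, and Pld4 by 0.28. Fos stood at 2078 CPM in both.

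The genes higher in KO members were Ifi27l2a, Glo1, H2-Q6, Bex6, Rabgap1l and 1 provisional gene model. Ifi27l2a, an interferon-induced gene, was at 90.7 CPM in WT (86.1 to 95.4) and 206 in KO (196 to 218), a log2 difference of 1.18. It had a UMI in 292 of 714 WT and 261 of 522 KO members. Over the bins it stood at 198, 40.2 and 10.4 CPM in WT and 457, 84.8 and 14.8 in KO, with intervals apart in the lowest and the middle bin. Other cells of the KO library were higher too: neutrophil-side cells had 7.48 and 35.6 CPM, a log2 difference of 2.11, and monocyte-side cells 908 and 1525 CPM. Barcodes with at least 2 UMIs of the B lineage gene Cd79a (45 and 69) had 48.8 and 271 CPM. The difference was thus not particular to members. Glo1 (glyoxalase I, which detoxifies methylglyoxal) was at 119 and 254 CPM, with a log2 difference of 1.09 in members and 1.12 in neutrophil-side cells. H2-Q6, whose reads can be shared with near-identical class I genes such as H2-Q7 and is therefore uncertain, was at 51.9 and 98.5 CPM. Bex6 was at 41.0 and 63.5 CPM and Rabgap1l at 43.0 and 65.3.

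Around Ifi27l2a, 18 of 21 type I interferon response genes with at least 30 UMIs had a log2 ratio above 0, with a median of 0.44 beside 0.01 over 10777 genes with as many UMIs. Only Ifi27l2a passed the limits. Isg15 was at 4.73 and 12.7 CPM and Irf7 at 4.61 and 11.2 CPM, both under the limit of 50 CPM. The list of class I antigen presentation, which does not hold H2-Q6, had 12 of 14 genes above 0 with a median of 0.22 and none past the limits. B2m, the light chain of class I molecules, was at 1019 and 1223 CPM.

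Chil3 (Ym1, a chitinase-like protein of granulocytes and monocytes) had the largest deficit in KO members among genes counted in many cells. It was at 136 CPM in WT (130 to 141) and 15.4 in KO (12.6 to 18.6), a log2 difference of -3.06. A UMI was present in 219 of 714 WT and 59 of 522 KO members, and the 5 highest cells held 14.5% and 26.9% of the UMIs. Without the highest doublet scores the levels were 142 and 15.8 CPM. Over the bins Chil3 stood at 232, 95.3 and 44.7 CPM in WT and 28.2, 10.4 and 1.85 in KO. In neutrophil-side cells it was at 71.7 and 84.3 CPM.

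S100a8, which encodes a subunit of the alarmin calprotectin, was at 1195 CPM in WT members and 668 in KO members, a log2 difference of -0.84. Without the highest doublet scores it was at 1003 and 351 CPM, a log2 difference of -1.51. In neutrophil-side cells the sign was opposite and passed the limits, with 10474 and 17213 CPM. Over the bins of members it stood at 2207, 660 and 691 CPM in WT and 734, 599 and 730 in KO, so with all members the libraries differed mainly in the lowest bin. Without the doublets the bins held 2042, 506 and 392 CPM in WT and 419, 276 and 426 in KO, and the middle bin differed as well. A UMI was then present in 67.3% and 46.1% of cells in the lowest bin. Klf1 cells, which should lack S100a8, held 482 and 792 CPM with a UMI in 18.0% and 13.7% of cells. Cd79a cells held 2096 and 5786 CPM, with a UMI in 16 of 45 and 16 of 69. The KO members' 668 CPM was below both levels, although a UMI was found in 39.5% of them and in 58.0% of WT members. Its partner S100a9 was at 1111 and 854 CPM in members and did not pass, and at 806 and 344 CPM without the doublets.

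Lcn2 (lipocalin 2, a secondary granule protein) was at 167 CPM in WT and 65.7 in KO members, and at 152 and 28.5 CPM without the doublets, log2 differences of -1.33 and -2.38. Of its KO UMIs, 44.1% came from 5 cells, and a UMI was found in 55.6% of WT and 23.8% of KO members. In Klf1 cells it was found in 8.98% and 5.34%, with 136 CPM in the KO library, a level above that of the KO members. Cxcl2, a neutrophil attractant, was at 171 and 102 CPM in members, whereas neutrophil-side cells had 23.7 and 38.1. Chil3, S100a8, Lcn2 and Prss34 were each under 20% of the level of the whole marrow library in at least 1 of the 2 libraries. A guard against free RNA set at that share drops them and the immunoglobulin segments named further on, which leaves 8 of the 14 lower genes.

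**Figure D5:**
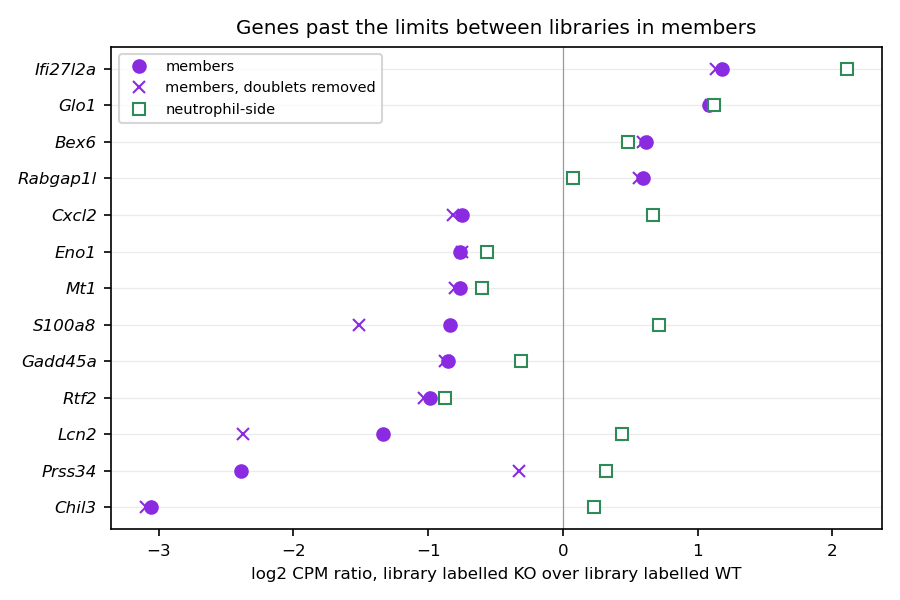
Log2 ratio of CPM in the library labelled KO over the library labelled WT for 13 genes that passed the limits in members (filled circles), in members without the highest doublet scores (crosses) and in neutrophil-side progenitors (open squares). Glo1, Rtf2, Mt1 and Eno1 lie on the same side of 0 in both cell groups, S100a8, Lcn2, Cxcl2 and Chil3 on opposite sides, and the deficit of Prss34 shrinks without doublets.

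Prss34, a basophil protease gene, was at 124 and 22.9 CPM, but 98.5% and 95.5% of the UMIs were in 5 members of each library. Without the doublets it was at 1.93 and 1.34 CPM. Single cells also made the deficits of the immunoglobulin segments Igkv3-2 and Ighv3-2, since 1 WT member held 9825 of the 9833 UMIs of the former and 1 held 2452 of the 2453 UMIs of the latter. The naming rule leaves such segments out, and they were named after their values were seen, as were Plin2 and Gapdh.

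Other genes that were lower in KO members were spread over many cells. Rtf2, a gene of replication termination, was at 161 and 80.8 CPM in members and 140 and 76.2 in neutrophil-side cells. Mt1 (metallothionein 1, a zinc-binding protein) was at 471 and 277 CPM, and over the bins at 284, 476 and 953 in WT and 137, 289 and 549 in KO. Gadd45a, a stress-induced gene, was at 67.1 and 36.7 CPM. Plin2, a lipid droplet coat gene, was at 194 and 121 CPM. Eno1 and Gapdh, enzymes of glycolysis, were at 115 and 66.9 CPM and at 629 and 414 CPM. Eno1b, a near-identical copy of Eno1 that can share its reads, was at 64.0 and 37.4 CPM and is uncertain.

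The glycolysis and hypoxia list had 1 of 20 genes above 0 and a median log2 of -0.19, with Gapdh and Eno1 past the limits. Pgam1 was at 853 and 768 CPM and Aldoa at 866 and 819, neither past them. Immediate early and heat shock genes had 3 of 23 above 0 with a median of -0.22 and none past the limits. The 24 S phase genes had 18 above 0 with a median of 0.08, and the 28 G2 and M genes 6 with a median of -0.13. Scaling the libraries to a median ratio of 0 moved each value by 0.02 and turned none of these medians.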

How the data were processed

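The unit is the UMI count: gene by barcode matrices of raw counts as deposited, made with Cell Ranger 6.0.0 on mm10 per the submitters' processing notes and 6.1.0 per the file headers. A 5' reagent kit and a 3' v3 kit are both listed in the labels' protocols, and which transcript end these UMIs come from is therefore unknown here. Only the bone marrow libraries (5852 barcodes labelled WT, 6638 labelled KO) entered the comparisons. UMIs were summed over the cells of a group and scaled to CPM, and log2 ratios used a pseudocount of 1 CPM. Genes needed 100 UMIs and a mean of 50 CPM. A gene passed at 2-fold the same way in both libraries with 95% Poisson intervals apart, or at 1.5-fold between the labels.

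Members, the 29 gene lists and the alternatives were chosen with earlier results of these data known. Named genes were the 12 highest and 12 lowest against the neutrophil side, the 6 and 6 against the monocyte side, the 10 and 10 between the labels, the markers, the rule's genes, Cysltr1 and up to 4 most abundant genes per list, without ribosomal, mitochondrial, immunoglobulin or provisional genes. Other genes were named after their values were seen. Doublets were scored against simulated pairs (0.8% per 1000 barcodes) and kept, with values without them beside results that changed. To check the calculation only, Poisson counts were drawn from the summed level of the members, with 200 genes changed 3-fold. Of these, 100% were recovered between the labels (2817 genes) and against the neutrophil side (2927 genes), and 0 unchanged genes passed. The draws held no variation between cells, mice or libraries, so these values are not error rates of the calls. Python 3.11.15, numpy 2.4.6, scipy 1.17.1, pandas 2.3.3, scikit-learn 1.9.0 and matplotlib 3.10.9 were used. Gene positions are from the GENCODE annotation of mm10. Some genes are not reported here.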

Additional observations from a re-analysis of the deposited data

Results flagged for a closer look

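S100a8 differed between the labelled genotypes in opposite directions in the 2 progenitor groups. The log2 ratio of the library labelled KO over the library labelled WT was -0.84 in members and 0.72 in neutrophil-side progenitors, both past the limits. With 1 library per genotype the difference between the groups was not tested.

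In the spleen of the WT label, which the comparisons did not use, 11 of 8962 kept barcodes met the rule for members, against 3 of 8257 in the spleen of the KO label. The tumor libraries had 0 of 8599 and 0 of 6341, which allow shares of up to 0.0349% and 0.0473% (3 counts of the total). The 11 spleen cells held F13a1 at 1377 CPM and Ms4a6c at 889 CPM, with a median of 32217 UMIs.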

How the results depend on the processing

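No paired analysis was possible because each genotype has 1 marrow library. Of the single-gene values, 1362 were recomputed over 54 genes: 757 stayed within the counting interval, 599 left it with the same sign and 6 turned. The last were Ltf (0.12 and 0.0016, WT and KO) against a neutrophil side held to the members' limits on Ngp, Camp and Siglech, and Cpa3 (1.82 and 1.88) and Mcpt8 (1.38 and 2.02) without cells rich in Mcpt8, Prss34 and Cpa3, the latter chosen after seeing the data. The share of members (WT, KO, then their ratio) was 10.7%, 5.76% and 0.537 with 3 UMIs of Irf8 and Ly86 required. It was 11.03% and 6.38% with a granule limit of 0.5%. Thinned to 4000 UMIs, among barcodes with at least that many, it was 2.24%, 3.42% and 1.53. The alternatives added after seeing the data gave 9.39%, 10.4% and 1.10 (thinned, 1 UMI required) and 8.86% for WT with a ratio of 0.922 (WT cells drawn to the KO depth). With 30 UMIs per gene and no CPM limit, the higher and lower genes numbered 782 and 509 against the neutrophil side, 269 and 457 against the monocyte side, and 133 and 105 between the labels. Against the monocyte side, 36 were higher and 51 lower after thinning and the original rule, and 152 lower with 1 UMI required. Between the labels, 12, 22 and 13 genes were higher with thinning before the original rule, before the 1 UMI rule and after the rule, and 8 were lower under the guard against free RNA. Of the 6 higher and 14 lower genes between the labels, 2 and 3 passed again with thinning before the original rule, 4 and 10 with thinning before the 1 UMI rule, 5 and 12 with thinning after the rule, and 5 and 11 without doublets. So most of these calls were lost under the first setting, where 1560 genes were within limits against 2925. The cause of these shifts was not tested. Depth limits the low genes: Cysltr1 rests on 168 and 136 UMIs in members.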

Other observations

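Leukotriene genes were measured in members at a wide range of levels. Alox5ap, the activating protein of 5-lipoxygenase, was at 699 and 705 CPM in the libraries labelled WT and KO. Alox5, the lipoxygenase itself, was at 2.06 and 1.92 CPM in members and at 22.3 and 33.3 CPM in neutrophil-side progenitors. Ltc4s, the synthase of leukotriene C4, had 7 and 5 UMIs in all members of a library, and the cysteinyl leukotriene receptor gene Cysltr2 had 1 and 0. Lta4h, which makes leukotriene B4, was at 130 and 137 CPM against 464 and 497, and its receptor gene Ltb4r1 at 50.1 and 55.6 CPM against 148 and 195. Over the neutrophil side, 0 of 6 genes of the list within limits passed as higher and 3 as lower, beside 7.01% and 3.54% over all genes. Mgst1, a glutathione transferase gene, was at 273 and 257 CPM against 97.3 and 146. None of 5 genes of the list within limits passed between the labels.

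Cells excluded by the Siglech limit, 21 in the WT and 16 in the KO library, otherwise met the rule. They held F13a1 at 645 and 656 CPM and Flt3 at 123 and 105 CPM, against 16.5 and 17.9 CPM of Flt3 in members. Siglech marks plasmacytoid dendritic cells, and Flt3 is a receptor of dendritic precursors. Of conventional dendritic genes, Cst3 was at 1506 and 1885 CPM and Naaa at 70.9 and 69.2 CPM in members, while Clec9a had 17 and 12 UMIs and Xcr1 3 and 1.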
